A study of Mus musculus with 36 samples.

Results

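The 9 genes described here mark the oligodendrocyte lineage and myelin: Mbp, Mog, Mag, Cnp, Olig1, Sox10, Pdgfra, Cspg4 and Gm98. They were taken by symbol from the 21761 genes of a read count table, and the series holds 36 RNA sequencing libraries of mouse motor neurons. The motor neurons were differentiated from embryonic stem cells of the Hlxb9-GFP1Tmj transgene, in which the promoter of HB9 (Mnx1) drives eGFP, or eGFP with CD2. CD2-bearing cells were enriched on a magnetic column and then cultured in astrocyte-conditioned medium. Every cell carried that transgene, and the groups differ in the medium and in the days spent in it.

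Astrocytes that made the medium came from newborn pups. They over-expressed G93A mutant SOD1 (mSOD1, a mutation of familial amyotrophic lateral sclerosis), over-expressed wild-type SOD1 (wtSOD1) or were non-transgenic (NTg). Cells were collected on day 3 and on day 1, which gave 6 groups of 6 libraries each: mSOD1, wtSOD1 and NTg medium on day 3, and the same media on day 1. All media received glucose, antibiotics, GDNF, BDNF and CNTF. The library titles number the libraries of each group 1 to 6, and a number is called an experiment here. The labels do not state whether each experiment was a separate differentiation, so p-values measure the spread between these libraries. The HB9 promoter is active in motor neurons, and a magnetic column enriches cells without excluding others. The labels' protocols state that the astrocyte cultures showed no staining for the CNP protein.

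As background, oligodendrocytes of the spinal cord arise from the same ventral progenitor domain as motor neurons, which expresses the transcription factor Olig2. Precursor cells carry the PDGF receptor Pdgfra and the proteoglycan Cspg4 (NG2) and divide in response to PDGF. Sox10 and Olig1 drive their differentiation, Gm98, the older symbol of Myrf, switches on the myelin genes, and Mbp, Mag, Mog and Cnp encode proteins of myelin. Several of these genes are not private to the lineage. Pdgfra and Cspg4 also mark mesenchymal cells and pericytes, Sox10 marks neural crest, and the Mbp gene also makes golli proteins from an upstream promoter in neurons, which counts per gene cannot separate.

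Reads assigned to genes came to between 4.39 M and 88.9 M per library. A count of 3 reads, taken here as the floor of detection, corresponds to 0.0362 CPM (reads of a gene per M reads of the library, with TMM scaling) in the deepest library and 0.707 CPM in the shallowest. The shallowest is the NTg library of experiment 6, day 1, which stood apart for most of the 9 genes. Results that it moves most are given with and without it. Markers of motor neurons, 6 genes summed, averaged 415, 349 and 360 CPM on day 3 in mSOD1, wtSOD1 and NTg medium, against 871, 885 and 887 CPM on day 1.

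The 9 genes ranged from readily measured ones to Mag and Sox10, which were at the edge of detection. Per kb of exon, so that genes of unequal length can be compared, the mean level over all 36 libraries was 8.52 CPM per kb for Cnp, 8.42 for Mog and 3.32 for Mbp. The lineage factors Olig1 (1.91 CPM per kb) and Gm98 (0.727) came next. The receptor Pdgfra (0.14 CPM per kb), Cspg4 (0.187), Sox10 (0.112) and Mag (0.078) were lowest. Cnp and Mog differed by less than their spread between libraries (SD 1.22 and 0.83 CPM per kb, n = 36). Without the NTg library of experiment 6 the low genes had 0.181 ± 0.0791 CPM per kb for Cspg4, 0.0987 ± 0.0505 for Pdgfra, 0.086 ± 0.156 for Sox10 and 0.024 ± 0.0354 for Mag (SD, n = 35). Cspg4 and Mag then stood further apart than either SD, whereas Pdgfra and Sox10 did not. Mag had 91 reads in all libraries together, with 14 libraries at 0, and Sox10 had 174 reads, with 10 libraries at 0. These 2 genes did not pass the filter on low counts, with or without the NTg library of experiment 6, so 7 of the 9 genes were tested.

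**Figure D1:**
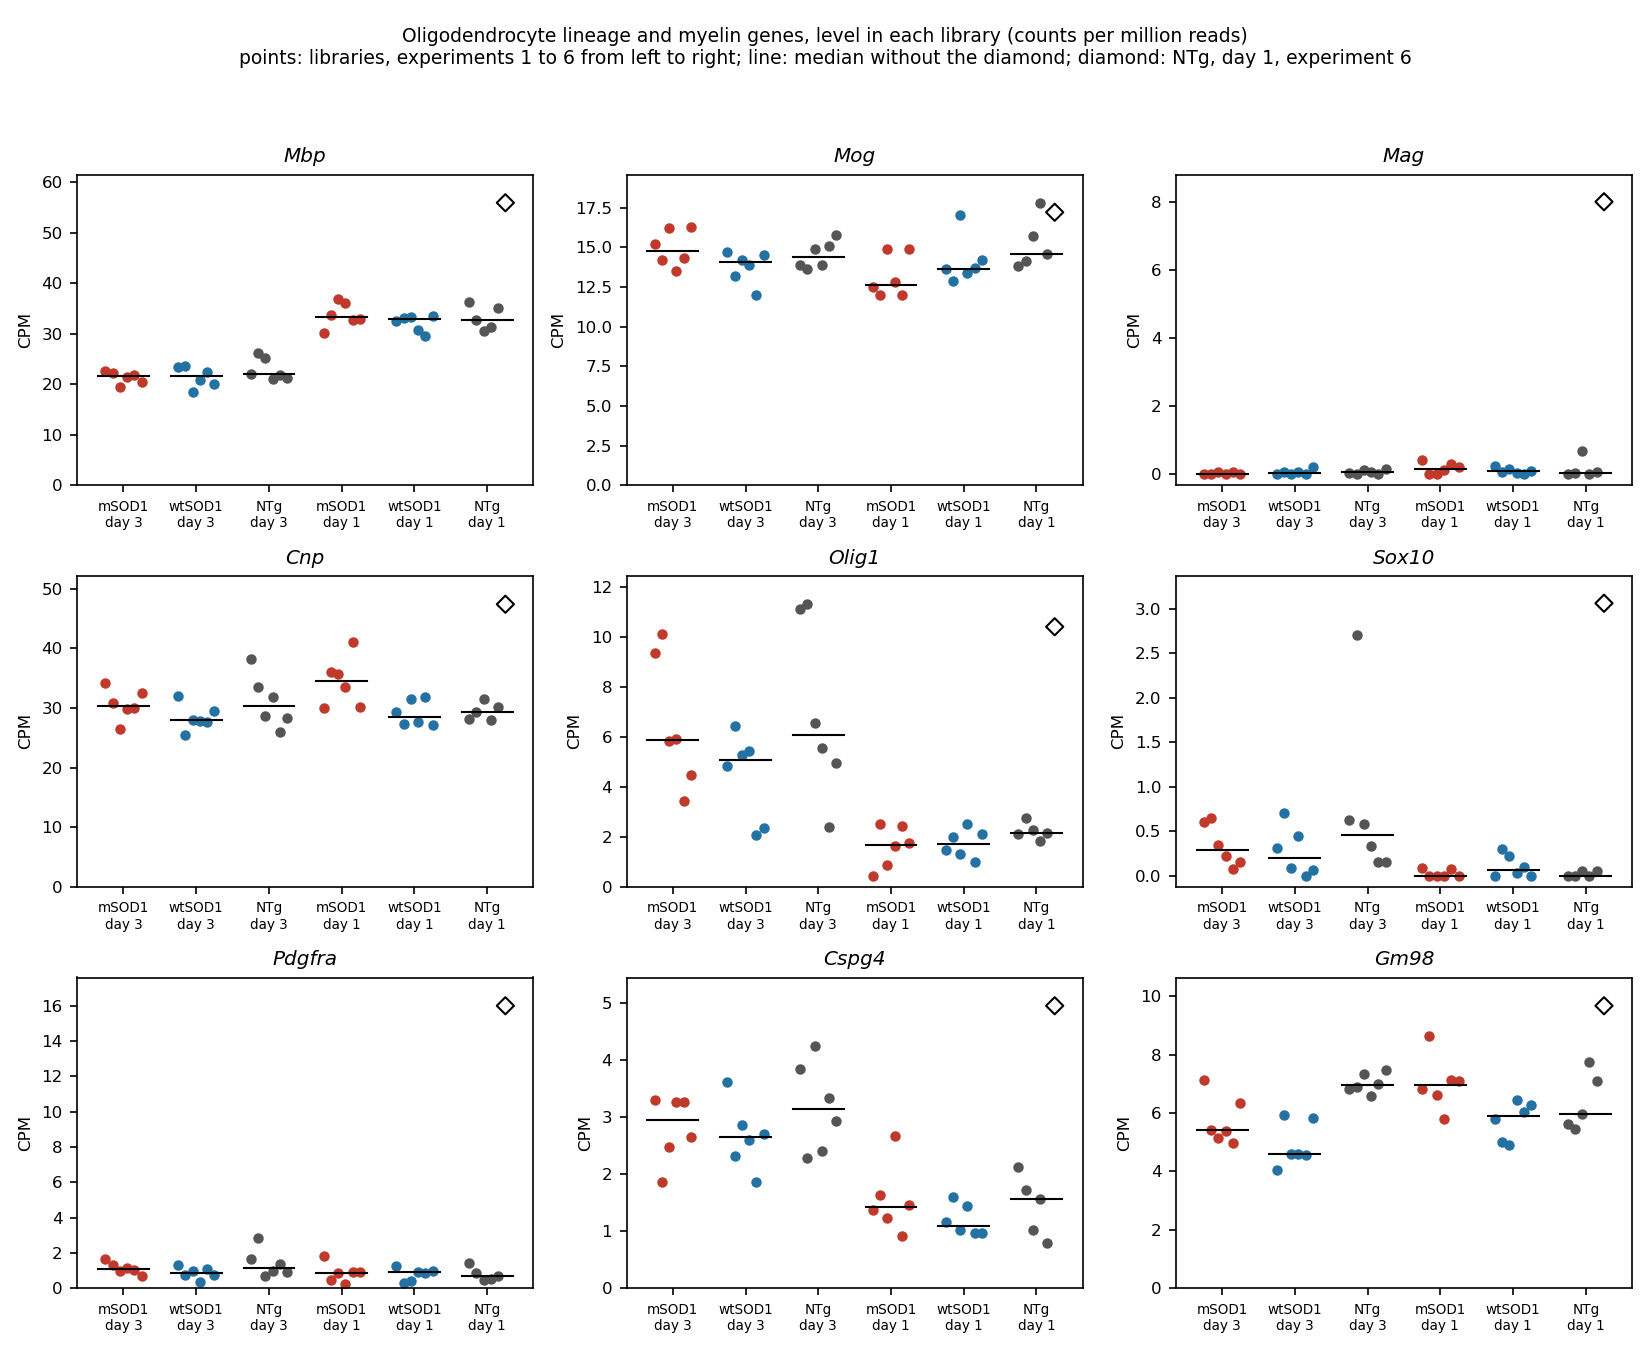
Level of each of the 9 genes in every library, in CPM, for mSOD1, wtSOD1 and NTg medium on day 3 and on day 1. Points are single libraries, lines are medians without the open diamond, and the diamond is the NTg library of experiment 6, day 1, which was the highest of all 36 libraries for 7 of the 9 genes. Mbp was lower in every day 3 library than in every day 1 library of the same medium. The share of all genes with such a separation was not counted.

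Among the myelin genes, Mbp, which encodes the protein that compacts the myelin sheath, was lower on day 3 in every medium. In mSOD1 medium its lowest, median and highest levels were 19.5, 21.6 and 22.6 CPM on day 3, against 30.2, 33.3 and 36.9 CPM on day 1. In wtSOD1 medium they were 18.5, 21.6 and 23.6 CPM on day 3, against 29.5, 32.9 and 33.4 CPM on day 1. In NTg medium they were 21, 22 and 26.1 CPM on day 3, against 30.6, 33.9 and 55.9 CPM on day 1, where the highest value is that of experiment 6. The days did not overlap in any medium. The share of all genes tested whose days separate in this way was not counted, so separation is description only, here and for Olig1 and Cspg4 below. The log2 difference, day 3 minus day 1, was -0.66 ± 0.09 in mSOD1 medium (SE derived from the test statistic, n = 6 libraries per group here and below; adjusted p = 6.85e-08, edgeR quasi-likelihood test with Benjamini-Hochberg adjustment over 15207 genes). It was -0.57 ± 0.09 in wtSOD1 medium (adjusted p = 5.37e-07) and -0.65 ± 0.09 in NTg medium (adjusted p = 5.74e-08), and -0.53 ± 0.07 in NTg medium without the library of experiment 6. Same-numbered libraries were lower on day 3 in 6 of 6 experiments in each medium.

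Mbp was one gene among many that moved. Between day 3 and day 1, 56.5% of all genes tested passed the threshold in mSOD1 medium, 61.8% in wtSOD1 medium and 61.6% in NTg medium. Of the 7 members tested, 4 passed in mSOD1 medium and 3 in each of the other two. These shares lie near the background or below it. The members' median log2 difference was 0.18, -0.04 and -0.01 in mSOD1, wtSOD1 and NTg medium, beside -0.01, -0.01 and 0 over all genes tested. Without the library of experiment 6 it was 0.15 in NTg medium.

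Mog, a surface protein of the outer myelin layer, had group means between 13.2 and 15.5 CPM and passed in no comparison of the main edgeR fit, with all libraries and no block. Its lowest, median and highest levels in mSOD1 medium were 13.5, 14.8 and 16.3 CPM on day 3, against 12, 12.6 and 14.9 CPM on day 1. These groups overlapped. The log2 difference there was 0.18 ± 0.08 and did not pass (adjusted p = 0.0581, edgeR), although day 3 was higher in 6 of 6 experiments. With experiment as a block it passed (adjusted p = 0.0275, edgeR), in a fit where 58.8% of all genes did. In wtSOD1 and NTg medium Mog differed by -0.04 ± 0.08 and -0.08 ± 0.08. Between media on day 1, Mog was at 13.2 ± 1.36 CPM in mSOD1 medium and 15.5 ± 1.67 CPM in NTg medium (SD), lower in 6 of 6 experiments (log2 difference -0.21 ± 0.08, adjusted p = 0.54, edgeR, and 0.212 with experiment as a block).

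Cnp, an enzyme of non-compact myelin, was, with Mog, one of the genes with most reads per unit length, with group means between 28.4 and 34.4 CPM. It passed the test in no comparison. Its largest differences between media were on day 1, where its lowest, median and highest levels were 30, 34.6 and 41 CPM in mSOD1 medium and 27.1, 28.5 and 31.8 CPM in wtSOD1 medium (log2 difference 0.24 ± 0.09, adjusted p = 0.309 by edgeR, higher in 6 of 6 experiments). An exon of Cnp overlaps 154 bases of the gene Dnajc7 on the other strand in the GRCm38 annotation. No source used here states whether counting used strand.

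Mag, a myelin protein that faces the axon, was at or under the floor of 3 reads in 29 of 36 libraries, and group means outside NTg medium on day 1 ran from 0.022 to 0.179 CPM. The NTg libraries of day 1 held 34 reads in experiment 6 and 0, 1, 12, 0 and 1 reads in experiments 1 to 5. On day 3 the 6 libraries of a medium held 2, 6 and 7 reads in all for mSOD1, wtSOD1 and NTg medium. One library thus held 34 of the 91 reads. With no filter on low counts, Mag was called lower on day 3 in NTg medium (adjusted p = 0.00278, edgeR, where 47.1% of 19963 genes were called), and it was not called without the library of experiment 6 (adjusted p = 0.254).

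The upstream sequences of the Mag, Cnp, Mog and Pdgfra genes are shown because Mag and Pdgfra stood at 50.4-fold and 20.1-fold the mean of the other 5 libraries of its group in one library, described further on, while Mog and Cnp stood at 1.13-fold and 1.61-fold. Each is the 250 bases before the annotated start, 5′ to 3′ on the gene's strand, from RefSeq, build GRCm38.p6. The entries kept for this lookup cover 5 of the 9 genes. None was available among them for Mbp, Olig1, Sox10 and Gm98, which does not show that RefSeq lacks these promoters. Capitals mark matches on either strand to CTGGCAC or CTGGTAC, the letters bound by MYRF, and to ACAAAG, letters bound by SOX factors; the 2 motifs do not overlap in these windows. Mag lies at chr7:30914864-30915113 (minus strand), Cnp at chr11:100574689-100574938 (plus), Mog at chr17:37023399-37023648 (minus) and Pdgfra at chr5:75152001-75152250 (plus).
Mag: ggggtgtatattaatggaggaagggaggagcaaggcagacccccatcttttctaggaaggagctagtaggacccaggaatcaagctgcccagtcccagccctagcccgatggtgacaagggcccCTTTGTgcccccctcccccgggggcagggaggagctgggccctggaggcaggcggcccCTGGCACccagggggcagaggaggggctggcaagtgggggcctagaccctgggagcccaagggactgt
Cnp: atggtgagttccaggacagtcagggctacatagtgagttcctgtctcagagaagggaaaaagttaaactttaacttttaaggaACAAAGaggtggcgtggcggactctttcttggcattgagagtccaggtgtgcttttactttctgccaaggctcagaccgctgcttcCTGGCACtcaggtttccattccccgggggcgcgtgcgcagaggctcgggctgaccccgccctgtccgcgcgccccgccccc
Mog: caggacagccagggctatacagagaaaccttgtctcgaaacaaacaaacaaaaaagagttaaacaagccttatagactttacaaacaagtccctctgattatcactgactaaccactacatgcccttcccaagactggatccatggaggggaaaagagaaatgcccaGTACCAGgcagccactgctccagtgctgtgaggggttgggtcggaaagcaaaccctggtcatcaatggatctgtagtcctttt
Pdgfra: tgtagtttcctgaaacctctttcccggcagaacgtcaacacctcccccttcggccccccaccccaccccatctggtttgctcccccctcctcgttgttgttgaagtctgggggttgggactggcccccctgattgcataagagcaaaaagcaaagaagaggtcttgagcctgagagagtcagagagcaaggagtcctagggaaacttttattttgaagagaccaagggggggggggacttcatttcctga
The MYRF letters occur once each in the Mag, Cnp and Mog windows, and the SOX letters once each in those of Mag and Cnp. Pdgfra and Cspg4 hold neither. Of the 27025 promoters kept for this lookup, with a window of the same length, 5.86% hold the MYRF letters and 16.5% the SOX letters. A match describes the letters only and is not evidence of binding.

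Of the lineage transcription factors, Olig1 was higher on day 3 in all 3 media. In mSOD1 medium its lowest, median and highest levels were 3.42, 5.87 and 10.1 CPM on day 3, against 0.431, 1.68 and 2.52 CPM on day 1, and the days did not overlap. In wtSOD1 medium they were 2.09, 5.06 and 6.42 CPM on day 3, against 0.974, 1.72 and 2.52 CPM on day 1. In NTg medium they were 2.39, 6.06 and 11.3 CPM on day 3, against 1.84, 2.22 and 10.4 CPM on day 1. In wtSOD1 and NTg medium the days overlapped, and the 10.4 CPM were again experiment 6; the other 5 libraries of that group had at most 2.75 CPM. The log2 difference was 2.00 ± 0.42 in mSOD1 medium (adjusted p = 0.00011, edgeR; higher in 6 of 6 experiments), 1.28 ± 0.39 in wtSOD1 medium (adjusted p = 0.00493; 6 of 6) and 1.28 ± 0.38 in NTg medium (adjusted p = 0.00394; 5 of 6). Without the library of experiment 6, the NTg difference was 1.66 ± 0.35. The difference between mSOD1 and NTg medium in this change was 0.71 ± 0.57 (adjusted p = 0.591, edgeR interaction), and 0.33 ± 0.51 (adjusted p = 0.809) without the library of experiment 6, so the larger value in mSOD1 medium was not shown to differ.

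On day 3 the same experiments gave the extremes of Olig1 in all media. Experiment 2 was highest in every medium (10.1, 6.42 and 11.3 CPM in mSOD1, wtSOD1 and NTg medium) and experiment 5 was lowest in every medium (3.42, 2.09 and 2.39 CPM). Between media on day 3, wtSOD1 was lower than NTg in 6 of 6 experiments (log2 difference -0.69 ± 0.35, adjusted p = 1, edgeR) and mSOD1 was higher than wtSOD1 in 6 of 6 (0.54 ± 0.36, adjusted p = 0.456). Neither passed the threshold. With experiment as a block within the day, a setting chosen after seeing the data, they were -0.65 ± 0.22 (adjusted p = 0.402, edgeR) and 0.57 ± 0.23 (adjusted p = 0.0912). They did not pass there either.

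**Figure D2:**
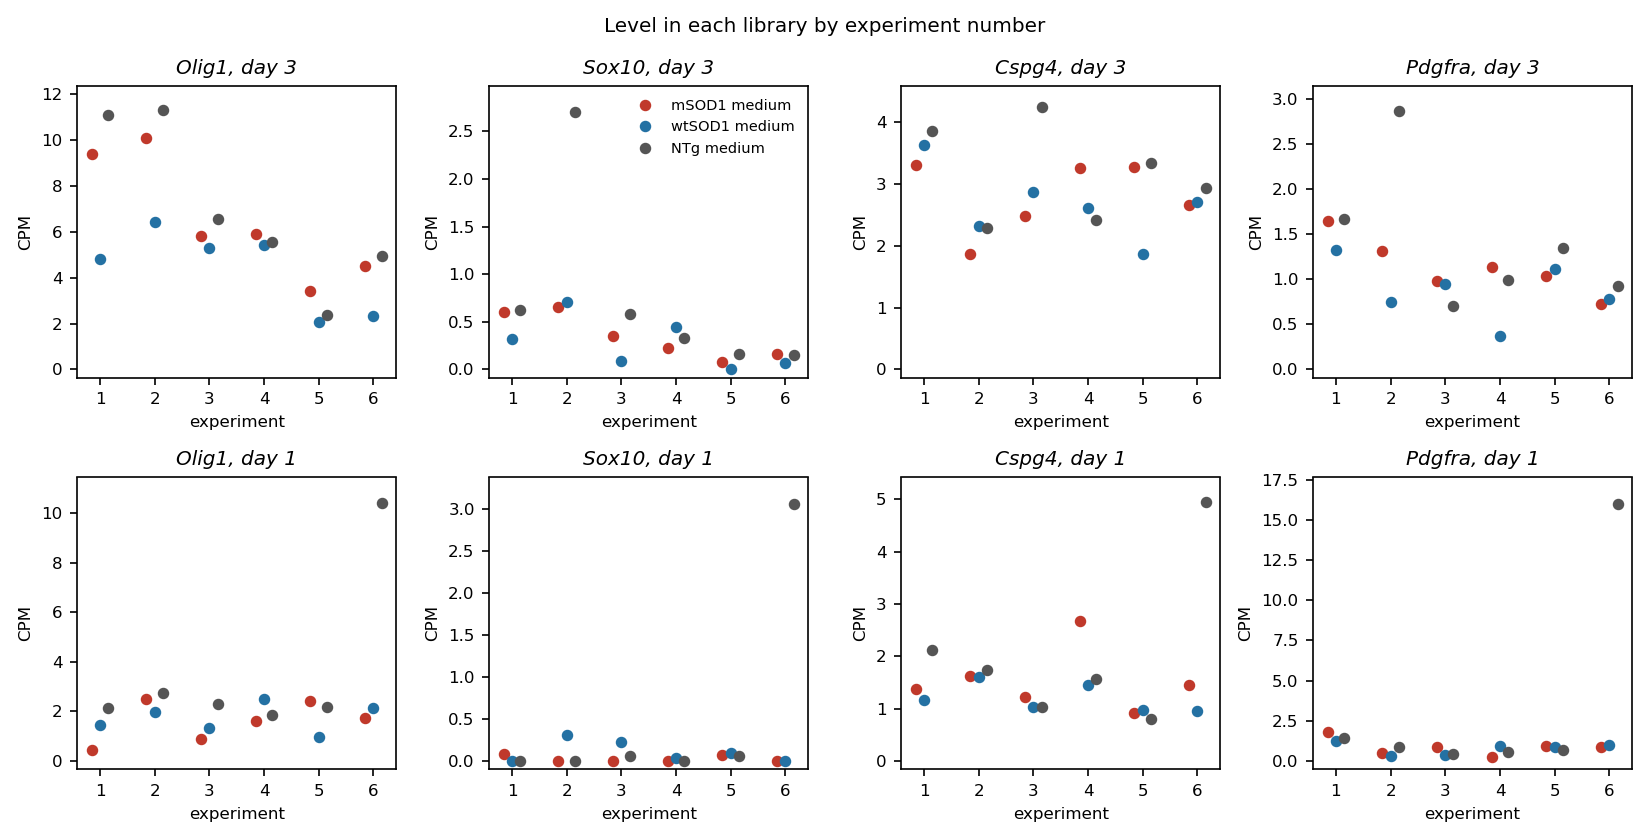
Levels of Olig1, Sox10, Cspg4 and Pdgfra in CPM by experiment number, day 3 above and day 1 below, 1 point per library, for mSOD1, wtSOD1 and NTg medium. On day 3 Olig1 was highest in experiment 2 and lowest in experiment 5 in all 3 media, and on day 1 the NTg library of experiment 6 lies far above the other points.

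Sox10, which acts throughout the lineage and in neural crest, gave few reads. On day 3 the libraries of experiments 1 to 6 held 7, 7, 6, 3, 1 and 2 reads in mSOD1 medium, 5, 17, 1, 6, 0 and 1 in wtSOD1 medium and 27, 45, 9, 4, 2 and 2 in NTg medium. On day 1 they held 1, 0, 0, 0, 1 and 0 in mSOD1 medium, 0, 4, 4, 3, 1 and 0 in wtSOD1 medium and 0, 0, 1, 0, 1 and 13 in NTg medium. With the reads of a group pooled and divided by its pooled library size, day 3 exceeded day 1 by a ratio of 12.8 in mSOD1 medium (26 against 2 reads, 95% exact interval 3.2 to 111), 4.19 in wtSOD1 medium (30 against 12 reads, 2.08 to 8.98) and 4.43 in NTg medium (89 against 15 reads, 2.55 to 8.25). Without the library of experiment 6, the NTg ratio was 31.6 (89 against 2 reads, 8.49 to 265). These intervals cover counting error only, and deep libraries weigh most in them. The wtSOD1 ratio was 2.59 (1.2 to 6.21) without the day 1 library of experiment 4 and 2.46 (1.03 to 5.89) without the day 3 library of experiment 2. The NTg ratio was 2.57 (1.4 to 4.97) without the day 3 library of experiment 2, which gave 45 of the 89 reads. With each library weighted equally, the ratio of mean CPM was 12.8 in mSOD1, 2.44 in wtSOD1 and 1.43 in NTg medium. Experiment 2 was the highest in each medium on day 3, as for Olig1. With no filter on low counts, day 3 was called higher in mSOD1 medium (adjusted p = 0.0468, edgeR, where 42.6% of genes were called), and not in wtSOD1 medium (adjusted p = 0.237, where 48.5% were called) or NTg medium (adjusted p = 0.201); without the library of experiment 6 it was called in NTg medium (adjusted p = 0.000112).

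Gm98, the Myrf gene whose product turns on myelin genes, had its clearest contrast between media. On day 3 its lowest, median and highest levels were 4.06, 4.6 and 5.92 CPM in wtSOD1 medium, against 6.57, 6.94 and 7.48 CPM in NTg medium. These groups did not overlap, and wtSOD1 was lower in 6 of 6 experiments. The share of all genes tested that separate in this way was not counted, so the separation is description only. In the test across all genes the log2 difference of -0.50 ± 0.12 did not pass (adjusted p = 0.127, edgeR quasi-likelihood), in a comparison where 0.0986% of genes did. With experiment as a block within the day, a setting chosen after seeing the data, the adjusted p was 0.0413, and with the shallowest library and the deepest one (wtSOD1, experiment 4, day 1) left out it was 0.0476. Over all alternatives it ran between 0.0413 and 0.501. The mSOD1 libraries had 4.97, 5.41 and 7.12 CPM and overlapped both other groups, with a log2 difference to NTg of -0.30 ± 0.12 (adjusted p = 0.158, edgeR; lower in 5 of 6 experiments). Over time, Gm98 was lower on day 3 than on day 1 in mSOD1 medium, with means of 5.73 ± 0.826 and 7.02 ± 0.923 CPM (SD; log2 difference -0.30 ± 0.12, adjusted p = 0.0332, edgeR; lower in 5 of 6 experiments). That call was lost when any of 5 single libraries was left out, with adjusted p up to 0.107 without the mSOD1 library of experiment 2, day 1, and 0.0571, 0.0752, 0.0608 and 0.0782 without the mSOD1 libraries of experiments 2, 3, 4 and 5, day 3.

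Of the precursor surface proteins, Cspg4 was higher on day 3 in all media. Its lowest, median and highest levels were 1.87, 2.95 and 3.3 CPM on day 3, against 0.912, 1.42 and 2.67 CPM on day 1, in mSOD1 medium. In wtSOD1 medium they were 1.86, 2.65 and 3.62 CPM on day 3, against 0.963, 1.1 and 1.6 CPM on day 1, without overlap. In NTg medium they were 2.28, 3.14 and 4.24 CPM on day 3, against 0.795, 1.65 and 4.95 CPM on day 1. In mSOD1 medium 1 day 1 library reached into the range of day 3. The highest NTg value of day 1, from experiment 6, lay above all 6 libraries of day 3; the other 5 lay below them. The log2 difference was 0.90 ± 0.27 in mSOD1 medium (adjusted p = 0.00454, edgeR; 6 of 6 experiments), 1.10 ± 0.26 in wtSOD1 medium (adjusted p = 0.000365; 6 of 6) and 0.89 ± 0.26 in NTg medium (adjusted p = 0.00317; 5 of 6), and 1.16 ± 0.23 in NTg medium without the library of experiment 6.

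Pdgfra, the receptor through which PDGF-A acts on precursors, changed sign with one library. In NTg medium on day 3 its lowest, median and highest levels were 0.706, 1.18 and 2.87 CPM, and on day 1 they were 0.458, 0.774 and 16 CPM. The 5 day 1 libraries of experiments 1 to 5 had 1.44, 0.866, 0.458, 0.553 and 0.682 CPM. With all libraries the log2 difference was -0.65 and did not pass (adjusted p = 0.351, edgeR). Without the library of experiment 6 it had the opposite sign and passed, at 0.86 ± 0.37 (adjusted p = 0.0406, where 61.5% of genes passed). With no filter on low counts and without that library it did not pass (0.86 ± 0.37, adjusted p = 0.0543). In mSOD1 medium Pdgfra averaged 1.14 ± 0.315 CPM on day 3 and 0.868 ± 0.537 CPM on day 1, and in wtSOD1 medium 0.884 ± 0.333 CPM on day 3 and 0.791 ± 0.366 CPM on day 1 (SD). Neither difference passed (adjusted p = 0.678 in mSOD1 medium and 0.895 in wtSOD1 medium, edgeR). The counts behind these values were between 2 and 78 reads per library.

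**Figure D3:**
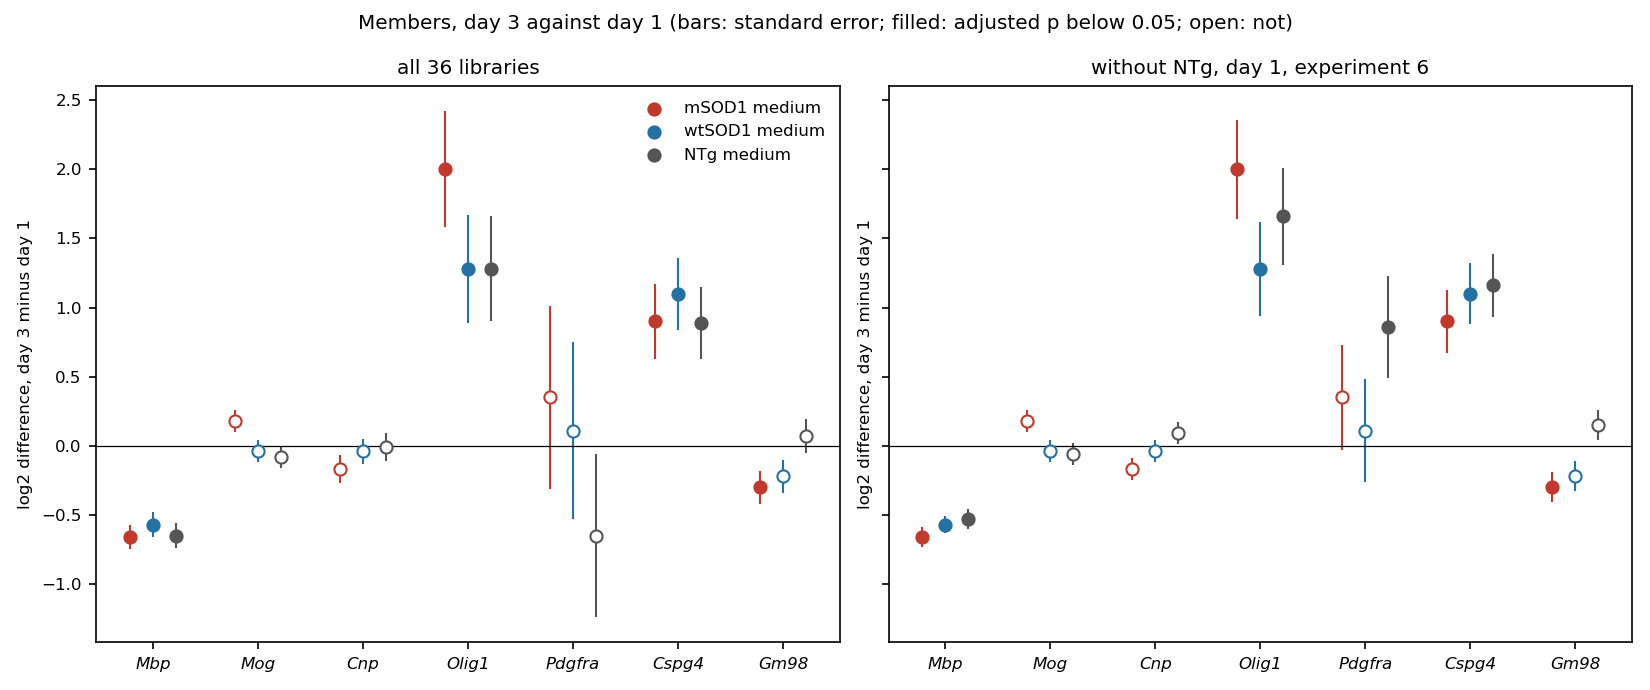
Log2 difference of the 7 members tested, day 3 minus day 1, in mSOD1, wtSOD1 and NTg medium, with all 36 libraries (left) and without the NTg library of experiment 6, day 1 (right). Bars are standard errors and filled points passed the threshold of 0.05 after adjustment. Pdgfra in NTg medium lies at -0.65 on the left and at 0.86 on the right.

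Levels of other cell types moved with the day as well, beside the members that were higher on day 3. Dividing cell markers were higher on day 3 in 5 of 5 genes in each medium, with summed means of 792, 983 and 949 CPM on day 3 and 441, 457 and 463 CPM on day 1 in mSOD1, wtSOD1 and NTg medium. Astrocyte markers were higher in 4 of 6 genes and lower in 1 in each medium, with sums of 351, 384 and 385 CPM on day 3 and 126, 134 and 138 CPM on day 1. Mesenchyme and pericyte markers, some of which share cells with Pdgfra and Cspg4, were higher in 6 of 7 genes tested in each medium, and the other was lower in NTg medium. Motor neuron markers were lower in 6 of 6 genes in each medium. Neural crest and Schwann cell markers summed to 138, 126 and 135 CPM on day 3 and 339, 308 and 352 CPM on day 1, and most of that sum was Ngfr, a neurotrophin receptor (79.5, 65.3 and 67.2 CPM on day 3 and 293, 270 and 296 CPM on day 1). By gene, 3 of the 6 tested were higher on day 3 in each medium (Tcfap2a, Tcfap2b and Ets1), and 2, 2 and 3 were lower, or 2 in NTg medium without the library of experiment 6. The part of these cell types in the members' differences was not tested, and in bulk RNA a change in the number of cells of a type and a change in RNA per cell cannot be told apart.

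The PDGF ligands Pdgfa, Pdgfb, Pdgfc and Pdgfd act on the Pdgfra receptor or its relative Pdgfrb. All 5 genes of this list, Pdgfrb included, were higher on day 3 in every medium, with a median log2 difference of 1.07, 1.13 and 1.19 in mSOD1, wtSOD1 and NTg medium, beside -0.01, -0.01 and 0 over all genes. Pdgfa, the main ligand of Pdgfra, had 19.7 ± 1.72, 19 ± 0.814 and 20.1 ± 2.14 CPM on day 3 in the 3 media, against 9.42 ± 1.23, 8.74 ± 2.09 and 8.47 ± 2.1 CPM on day 1. Pdgfd differed by 2.08 ± 0.24, 1.65 ± 0.22 and 2.01 ± 0.24 on the log2 scale (adjusted p at most 2.2e-08, edgeR). Pdgfb was the one gene of this list that passed between media, at 12.9 ± 1.26 CPM in mSOD1 medium and 8.1 ± 1.94 CPM in wtSOD1 medium on day 1 (SD; log2 difference 0.68 ± 0.14, adjusted p = 0.00489, edgeR; 6 of 6 experiments).

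Other precursor genes did not move as one. Of 14 tested among 16, 5 were higher on day 3 in each medium, and 4, 2 and 3 were lower in mSOD1, wtSOD1 and NTg medium. Sox6, which holds precursors undifferentiated, differed by 1.59 ± 0.15, 1.60 ± 0.14 and 1.45 ± 0.14. Nkx2-2, a factor of ventral progenitors that promotes oligodendrocyte differentiation, differed by 1.5 ± 0.25, 1.39 ± 0.22 and 1.32 ± 0.23, and Sox8, a relative of Sox10, by 0.72 ± 0.17, 1.08 ± 0.17 and 1.34 ± 0.17. Vcan, a proteoglycan of the matrix, was lower, by -0.48 ± 0.08, -0.68 ± 0.08 and -0.70 ± 0.08. Olig2, the partner of Olig1, had 6.86 ± 2.56, 6.09 ± 2.07 and 7.62 ± 3.52 CPM on day 3, against 5.9 ± 2.13, 6.48 ± 1.88 and 7.94 ± 1.34 CPM on day 1, and passed in no medium (adjusted p = 0.51, 0.773 and 0.957, edgeR).

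Of the other myelin genes, 12 of 20 were tested. On day 3, 3, 4 and 4 were higher and 1, 2 and 2 were lower in mSOD1, wtSOD1 and NTg medium. Pmp22, a protein of peripheral myelin, was higher by 0.87 ± 0.08, 0.87 ± 0.07 and 0.97 ± 0.08. Gal3st1, which makes the myelin lipid sulfatide, was higher by 1.2 ± 0.24, 1.26 ± 0.23 and 1.14 ± 0.23, and Aspa, an enzyme of oligodendrocytes that splits N-acetylaspartate, by 1.89 ± 0.39, 1.83 ± 0.36 and 1.57 ± 0.35. Without the library of experiment 6, 1 rather than 2 of these myelin genes was lower in NTg medium. Among 8 inhibitors of oligodendrocyte differentiation, 4, 3 and 3 were higher and 3 were lower in each medium. Id2 was lower by -1.24 ± 0.10, -1.39 ± 0.10 and -1.24 ± 0.10, and Hes5, a Notch target, by -0.90 ± 0.22, -1.13 ± 0.21 and -1.10 ± 0.21. The genes named are examples. The inhibitors that were higher and the myelin genes that were lower are not named here, so the counts describe these lists.

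The comparison between media asks whether medium from mutant astrocytes changes gene expression in the neurons. No member passed it on either day. Between mSOD1 and NTg medium, 0 of 7 members passed on day 3 and 0 on day 1, where 2.91% and 0.421% of all genes passed. Between wtSOD1 and NTg medium, 0 of 7 passed on day 3 and 0 on day 1, where 0.0986% and 0.0263% passed. Between mSOD1 and wtSOD1 medium, 0 of 7 passed on day 3 and 0 on day 1, where 3.39% and 1.01% passed. With such shares over all genes, a count of 0 among 7 says nothing particular to the members. No member passed in the 3 interactions of day and medium either (0.23%, 0.0197% and 0.592% of all genes for mSOD1 with NTg, wtSOD1 with NTg and mSOD1 with wtSOD1). At an unadjusted p below 0.05, 9 of the 63 member values in these 9 comparisons passed by edgeR and DESeq2 called 0 of them after adjustment. The share of all genes at that unadjusted cut-off was not counted and the comparisons share groups, so this count is description only. It includes Pdgfra on day 1 in mSOD1 and wtSOD1 against NTg medium (unadjusted p = 0.0411 and 0.0225, edgeR). Without the NTg library of experiment 6, day 1, these were 0.718 and 0.936. No gene of the other precursor, other myelin and inhibitor lists passed between media. Of 5 inflammatory genes, 5 were higher in mSOD1 than in NTg medium on day 1. They summed to 133 ± 25.7 CPM in mSOD1 medium on day 1, against 43.5 ± 2.85 CPM in wtSOD1 medium and 44.8 ± 21.8 CPM in NTg medium (SD, n = 6), or 36 ± 2.72 CPM (n = 5) without the library of experiment 6.

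For the measured members, differences between media are given with their standard error, which does not limit how large they may be. On day 3, Mbp differed by -0.11 ± 0.09 between mSOD1 and NTg medium, Mog by 0.05 ± 0.08 and Cnp by -0.04 ± 0.09. For Pdgfra the same difference was -0.37 ± 0.60 and for Olig1 -0.15 ± 0.34. Without the NTg library of experiment 6, day 1, the standard error for Pdgfra was 0.34 and for Olig1 0.3, around the same differences. On day 1, the mSOD1 and wtSOD1 libraries were below NTg for Pdgfra by -1.36 ± 0.64 (adjusted p = 0.701, edgeR) and -1.48 ± 0.62 (adjusted p = 0.756), and without the NTg library of experiment 6 these values were 0.15 and 0.03.

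The NTg library of experiment 6, day 1, was highest of 36 for 7 of the 9 members (77.8%), all but Mog and Olig1, whereas it was highest for 9.25% of all 15207 genes tested. Intervals below are exact 95% intervals for its share of reads and cover counting error only. It had 8.02 CPM of Mag (5.54 to 11.2), and the other 35 libraries had 0 to 0.687 CPM. It had 16 CPM of Pdgfra (12.4 to 20.3), and the others had 0.233 to 2.87 CPM. Its 55.9 CPM of Mbp (48.9 to 63.4) and 47.4 CPM of Cnp (41 to 54.3) compare with at most 36.9 and 41 CPM elsewhere. For Cnp the lower end of the interval meets that highest other value. For Sox10 it had 3.06 CPM (1.63 to 5.23), and the NTg library of experiment 2, day 3, had 2.7 CPM, so those libraries could not be told apart at this depth. The same held for Cspg4, at 4.95 CPM (3.06 to 7.56) against a highest other value of 4.24 CPM, and for Gm98, at 9.67 CPM (6.93 to 13.1) against 8.62 CPM. Relative to the mean of the other 5 NTg libraries of day 1, its level was 50.4-fold for Mag, 20.1-fold for Pdgfra, 4.65-fold for Olig1, 3.42-fold for Cspg4, 1.68-fold for Mbp, 1.61-fold for Cnp, 1.52-fold for Gm98 and 1.13-fold for Mog. Sox10 had 13 reads there and 2 reads in those 5 libraries together (3.06 and 0.0228 CPM), too few for a firm fold.

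Genes outside the members are given for the same library, those named here after their values were seen. It was highest of 36 for 12 of 20 other myelin genes (60%) and 4 of 16 other precursor genes (25%). Mobp, a myelin protein, was 72.8-fold, Mal, a proteolipid of myelin, 59.9-fold and Gpr17, a receptor of committed precursors, 21-fold the mean of the other 5 NTg libraries of day 1. Olig2, which motor neuron progenitors also express, did not stand out, at 8.49 CPM, against 7.84 CPM in the other 5. Nkx2-2, a factor of ventral progenitors, did not either, at 2.59 CPM, against 2.59 CPM. Microglia markers moved with the members: 5 of 6 were highest there (83.3%), their sum was 42.9 CPM, against at most 3.98 CPM in any other library, and C1qa had 28 reads there and none in the other 35. Its dividing cell sum of 463 CPM and motor neuron sum of 841 CPM lay within the range of the other NTg libraries of day 1. The inflammatory sum was 89.1 CPM, against at most 38.6 CPM in those libraries. The astrocyte sum was 175 CPM, against at most 158 CPM there, with 2 of 6 genes highest of 36 (Slc1a2 and S100b). The neural crest and Schwann cell sum was 414 CPM, against at most 384 CPM, with 2 of 8 genes highest, in a list that shares genes with the myelin list. Of the mesenchyme and pericyte markers, 2 of 10 were highest (Rgs5 and Abcc9). The part of other cells in these values was not tested.

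**Figure D4:**
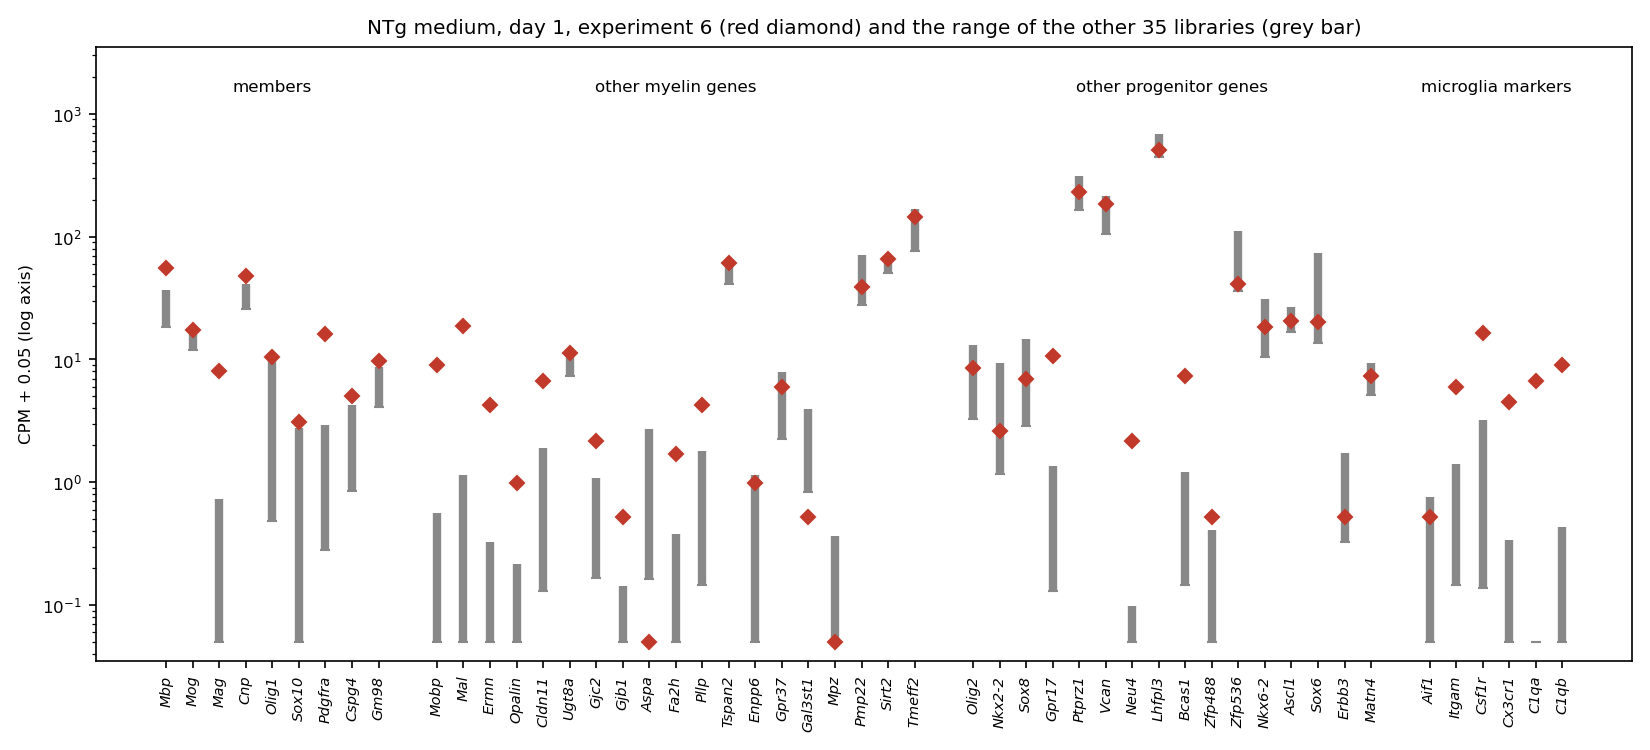
Level in the NTg library of experiment 6, day 1 (red diamonds), and range over the other 35 libraries (grey bars), in CPM with 0.05 added on a log axis, for the 9 members, 19 of the 20 other myelin genes, 16 other precursor genes and 6 microglia markers. Diamonds lie above the bars for 7 members, 11 other myelin genes, 4 other precursor genes and 5 microglia markers.

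Which genes varied like each member was described by the correlation of log2 CPM, after removing group means, over libraries that differ in depth. The values are the highest over all genes tested, and the level that such selection alone gives was not measured. Over all 36 libraries the likest gene was Sepp1 (r = 0.76) for Mbp. The likest were Glul (0.82), Gnaq (0.76) and Dnaja1 (0.75) for Cnp. For Mog they were Camk4 (0.72), Atp11b (0.70) and Glra2 (0.69). For Olig1 they were Sparcl1 (0.79), Col8a2 (0.78) and Btbd1 (0.75). For Cspg4 they were Vcam1 (0.75), Abi1 (0.72) and Slc4a10 (0.69), and for Gm98 Mmgt1 (0.68), Zc3h14 (0.63) and Slco6d1 (0.63). Over the 35 libraries without the NTg one of experiment 6, the top gene stayed the same for Mog alone (Camk4, 0.70). It was then Wnt7a (0.84) for Olig1, followed by the neural progenitor factor Sox1 (0.83) and Gm5607 (0.81), Ccdc124 (0.78) for Cnp and Gkap1 (0.57) for Mbp. No member was among the 3 likest genes of another member in either set.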

How the data were processed

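RNA of 36 libraries was sequenced, 6 for each of 3 media on 2 days. Per the file headers, each deposited file gives read counts per gene and a second column, VSE, which the values show to be on a log2-like scale. The submitters' processing notes name TopHat 1.3.3, mm9 and DESeq, without a version for DESeq; no source used here states the counter, annotation or strand setting. Columns of other samples were not present. Annotation for lengths and promoters is of GRCm38, so no gene coordinates are given for the counts.

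Counts were tested with edgeR 4.0.16 (R 4.3.3; quasi-likelihood, robust, TMM, filterByExpr by group) on the means of 6 groups (30 residual degrees of freedom; 12 contrasts). P-values were adjusted by Benjamini-Hochberg over 15207 genes with a threshold of 0.05. CPM use TMM-scaled library sizes, and log2 CPM a prior count of 2. The SE of a log2 difference was its size divided by the square root of the quasi-likelihood F statistic. It is approximate, and least reliable for differences near 0. Alternatives used DESeq2 1.42.0, limma 3.58.1 on the authors' VSE log2 values, RLE scaling, no filter, an experiment block and left-out libraries. The code was tested on simulated data. The 9 genes, the other lists and the tests were chosen with earlier results of these data known. Members were named whatever their value; from the other lists, up to 6 genes with the lowest p in the contrast, plus Olig2 and Nkx2-2; and, for each member with a mean log2 CPM of at least 1, its 3 likest genes. Some genes these rules name are not reported here.

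The pairing of libraries by experiment number comes from the numbers in the library titles. It was checked within each day only, so the pairing of day 3 libraries with day 1 libraries was not checked. Deviations from group means correlated at 0.132 on average between same-numbered libraries on day 1 (11 of 18 pairs above 0.1) and at 0.24 on day 3 (16 of 18), against -0.026 and -0.048 between different numbers.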

Additional observations from a re-analysis of the deposited data

Results flagged for a closer look

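Of 54 groups of 6 libraries (9 genes, 6 groups), 9 held a library whose gap to its nearest neighbour was large against the range of the group by Dixon's criterion; chance gives this in about 1 in 20 groups. In 7 of the 9 it was the NTg library of experiment 6, day 1, with 55.9 CPM of Mbp, 8.02 CPM of Mag, 47.4 CPM of Cnp, 10.4 CPM of Olig1, 3.06 CPM of Sox10, 16 CPM of Pdgfra and 4.95 CPM of Cspg4. This is also the shallowest library, with 34 reads of Mag and 13 of Sox10 behind those values. The wtSOD1 library of experiment 3, day 1, stood apart for Mog at 17 CPM. The NTg library of experiment 2, day 3, stood apart for Sox10 at 2.7 CPM.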

How the results depend on the processing

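Counts of members called, per comparison and setting, were set against the main count. A gain or loss of 1 member between days was scored as no change. Counts stayed at 0 or within 1.5-fold of the main one in 280 of 282 cases. In the other 2, for wtSOD1 against NTg medium on day 3, 1 member (Gm98) was called in place of 0, with a replicate block within each day and with the shallowest and the deepest day 1 libraries left out. Leaving out 1 library at a time gave 3 to 4 members called between days in NTg medium, 3 to 5 in mSOD1 medium and 3 in wtSOD1 medium, and 0 in every comparison between media. With the replicate block, Mog between days in mSOD1 medium was called (log2 difference 0.18, adjusted p = 0.0275); the block over both days changed no other call of a member.

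Pdgfra reversed its sign with the NTg library of experiment 6, day 1. Day 3 minus day 1 in NTg medium was 0.86 without it, 0.87 without it and the deepest day 1 library, and 0.88 with a replicate block and without it; over libraries left out it ran from -0.96 to 0.86. For mSOD1 against NTg medium on day 1 these values were 0.15, 0.15 and 0.22, with a range of -1.66 to 0.15. For wtSOD1 against NTg medium on day 1 they were 0.03 without it and 0.15 with the block, with a range of -1.77 to 0.03. On the authors' VSE values Gm98 was not called between days in mSOD1 medium (-0.20, adjusted p = 0.053) and Mog was (0.16, adjusted p = 0.042). Of 57 other member comparisons, 20 changed sign in some setting and 0 were called in any. Mag and Sox10 are limited by depth, since 3 reads equal up to 0.707 CPM.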
